A study of Mus musculus with 6 samples.

Results

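The 10 genes described here encode transcription factors that establish and maintain the endothelial lineage: the ETS factors Erg and Fli1, the SOXF factors Sox7, Sox17 and Sox18, the Krüppel-like factors Klf2 and Klf4, the hematopoietic and endothelial regulators Gata2 and Tal1, and the venous and lymphatic nuclear receptor Nr2f2. The genes were chosen by symbol for this role, with earlier results of these data known. Every probe set that the platform annotation assigned to one of these symbols alone was kept. This gave 21 probe sets for the 10 genes, out of 45037 probe sets tested and 18193 genes. Each had a measured signal on all arrays, and none was removed by a filter.

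The lung endothelial cells (ECs) came from NSG mice, an immunodeficient strain, aged 6 to 8 weeks when they received MDA-MB-231-LM2 human breast cancer cells through the tail vein. PBS-loaded or clodronate-loaded liposomes were given intravenously on days 14, 16 and 18, and lungs were taken on day 20. Clodronate kills the phagocytes that take up the liposomes, so the comparison asked which EC transcripts differ once macrophages have been targeted. All mice of both groups carried metastases, and no tumor-free lungs were among these arrays. Each group held 3 arrays (PBS-liposome replicates 1 to 3 and clodronate-liposome replicates 1 to 3), labelled biological replicates without the number of mice in each, and ECs were sorted by flow cytometry as cells positive for CD31 and negative for markers of leukocytes, epithelial cells and stromal cells and for the tumor cells' GFP. NSG mice lack T, B and natural killer cells but retain macrophages with impaired function.

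Endothelial identity rests on a small set of factors that bind the enhancers of one another and of shared endothelial genes. ERG and FLI1 recognize ETS motifs in nearly all endothelial enhancers, and SOXF factors act with them in arterial and lymphatic specification. KLF2 and KLF4 are induced by laminar blood flow and hold the endothelium in a quiescent, anti-inflammatory state. GATA2 and TAL1 are shared with blood cell progenitors, and NR2F2 (COUP-TFII) sustains venous identity by opposing Notch signaling.

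The labelled cell type was checked against its markers. All 18 pan-endothelial markers listed for this purpose were measured. Their mean log2 signal ran from 13.10 to 13.15 on the PBS-liposome arrays and from 13.05 to 13.22 on the clodronate-liposome arrays. Pecam1, which encodes the CD31 used for sorting, read 13.55 ± 0.042 and 13.62 ± 0.086 (log2 signal, mean ± SD, n = 3 per group), and Cdh5, the VE-cadherin of endothelial junctions, 13.37 ± 0.042 and 13.46 ± 0.18. By the brightest probe set, 10 of the 18 markers lay lower and 8 higher in the treated group. Flt1 had the smallest p of the list, at 12.94 ± 0.070 and 12.70 ± 0.033 with no overlap. Its difference was -0.24 (SE 0.091, adjusted p = 0.39 in limma). Of the probe sets of the lineage factors, 18 of 21 lay above the median signal of all probe sets (8.13). The 3 others all belonged to Nr2f2. The signal of a probe set depends on its probes as well as on the transcript, so the order of signals between genes is not an order of transcript levels and none is given.

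None of the lineage factors changed past the threshold. Of the 21 probe sets, 0 passed an adjusted p of 0.05 in limma, where 0.306% of all probe sets did, and 0 had an unadjusted p under 0.05, where 10.8% of all probe sets did. The smallest adjusted p was 0.540 and the smallest unadjusted p 0.0836, both for the brightest probe set of Nr2f2. The arrays of both groups were separated without overlap for 3 of the 21 probe sets, against 16.0% of all probe sets. Differences, clodronate-liposome minus PBS-liposome, ran from -0.21 to 0.18 on the log2 scale, with 13 below and 8 above 0 and a median of -0.02, while the median over all probe sets was -0.00014. A p that misses the threshold does not show that levels were equal, and the 95% intervals give the sizes that these arrays allow. All 21 intervals lay within 1 log2 unit of 0 on both sides, which was also true of 97.0% of all probe sets. Their lowest bound was -0.57 and their highest 0.59. A change of 2-fold in either direction therefore lay outside the interval of every probe set.

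**Figure D1:**
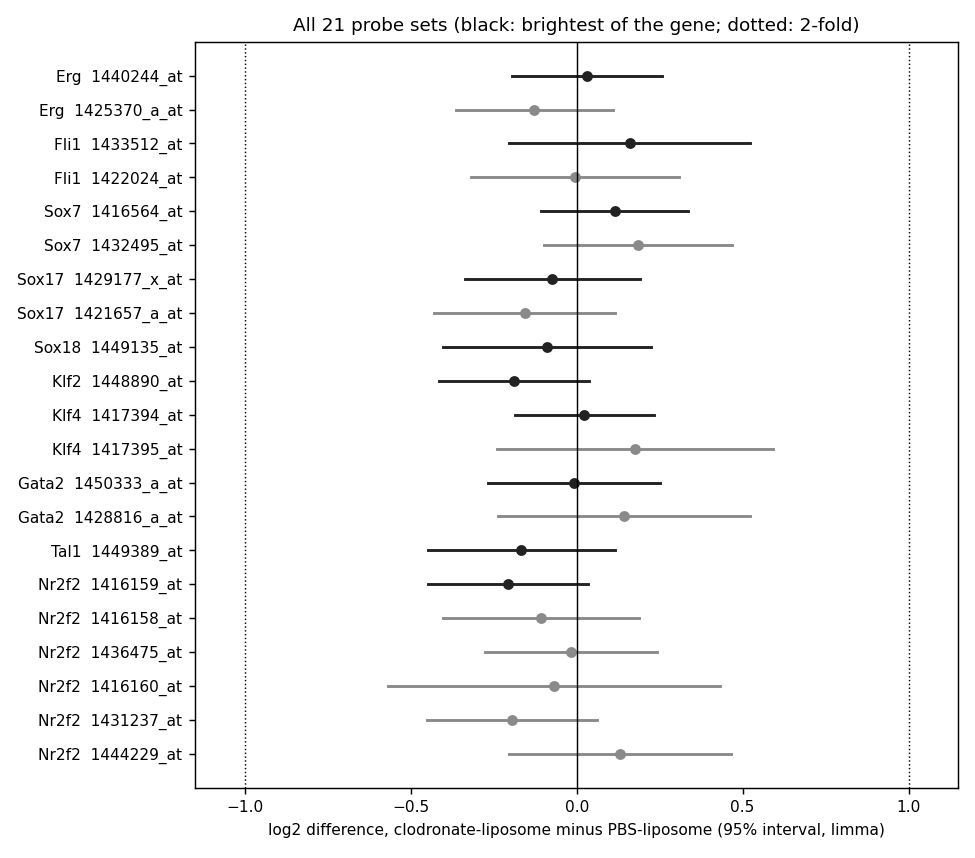
Log2 difference (horizontal axis, clodronate-liposome minus PBS-liposome) of each of the 21 probe sets of the 10 genes, with dots the estimates, lines the 95% intervals from limma and black the brightest probe set of a gene. Every interval includes 0 and lies between -0.57 and 0.59, inside the dotted lines that mark 2-fold.

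ERG keeps endothelial junction and lineage genes active in the adult vessel. Its brightest probe set (1440244_at) read 12.40, 12.46 and 12.48 on PBS-liposome arrays 1, 2 and 3 and 12.60, 12.43 and 12.39 on clodronate-liposome arrays 1, 2 and 3. The groups overlapped fully, with the highest and the lowest value of Erg both in clodronate-liposome mice. The log2 difference was 0.03 (SE 0.098, 95% interval -0.20 to 0.26), and its sign turned without clodronate-liposome replicate 1 (-0.03). The dimmer probe set (1425370_a_at) read 10.43, 10.42 and 10.62 against 10.43, 10.37 and 10.29, a difference of -0.13 (SE 0.10, adjusted p = 0.734 in limma).

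FLI1, the closest relative of ERG, is active in endothelium and also in megakaryocytes and other blood cells. Its brightest probe set (1433512_at) read 12.20, 12.13 and 12.04 on the PBS-liposome arrays and 12.01, 12.62 and 12.22 on the clodronate-liposome arrays. The treated arrays spanned the whole range, with replicate 1 the lowest and replicate 2 the highest of all 6, and their SD was 0.31 against 0.082 in controls. The difference of 0.16 (SE 0.16, 95% interval -0.20 to 0.52) turned to -0.01 without replicate 2. The second Fli1 probe set (1422024_at) had the same order among treated arrays, with 10.98, 11.47 and 11.32 against 11.30, 11.21 and 11.27, and a difference of -0.01 (SE 0.14). It lay above 0 when the clodronate array 1 (0.13), the PBS array 1 (0.015) or the PBS array 3 (0.00075) was left out.

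The SOXF factors act partly redundantly in vessel development, with SOX17 most closely tied to arteries and SOX18 to lymphatic specification. Both Sox7 probe sets had higher means in the clodronate-liposome group, neither past the threshold. Its brightest probe set (1416564_at) read 12.75, 12.68 and 12.55 in controls and 12.75, 12.81 and 12.76 in treated arrays, and the groups did not overlap, although PBS-liposome replicate 1 and clodronate-liposome replicate 1 were separated by less than a hundredth of a unit. The difference was 0.11 (SE 0.096, 95% interval -0.11 to 0.34, adjusted p = 0.749 in limma). The dimmer Sox7 probe set (1432495_at) differed by 0.18 (SE 0.12), with 9.07, 9.00 and 8.78 against 9.26, 8.97 and 9.18.

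Sox17 read 13.16, 13.31 and 13.25 against 12.99, 13.32 and 13.18 in its brightest probe set (1429177_x_at), whose suffix marks probes that can also bind other sequences. The groups overlapped, and the difference was -0.07 (SE 0.11), or 0.01 without clodronate-liposome replicate 1. The other Sox17 probe set (1421657_a_at) read 11.22, 11.12 and 11.23 against 11.17, 10.82 and 11.11, a difference of -0.16 (SE 0.12, 95% interval -0.43 to 0.12). The 2 probe sets placed clodronate-liposome replicate 2 at opposite ends, highest of the 6 arrays in the first and lowest in the second. Sox18 (1449135_at) read 12.76, 12.49 and 12.57 against 12.69, 12.28 and 12.58, with replicate 2 again the lowest. Its difference was -0.09 (SE 0.14, 95% interval -0.40 to 0.22), and 0.03 without that array.

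**Figure D2:**
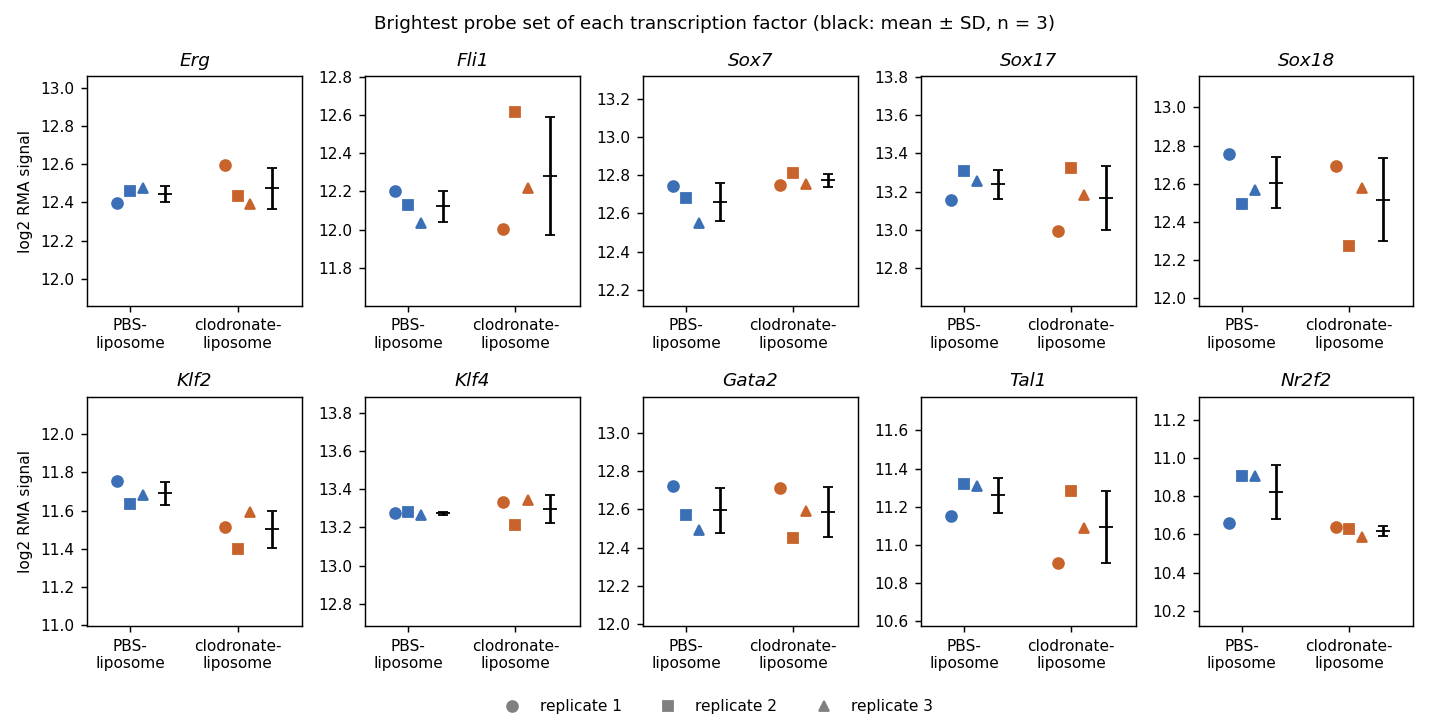
Log2 signal (vertical axes, each of the same span around the gene's mean) of the brightest probe set of the 10 genes on the 3 PBS-liposome (blue) and 3 clodronate-liposome (orange) arrays, with symbols for replicates and black marks for mean ± SD. Klf2 and Nr2f2 lay lower and Sox7 higher on every treated array, and Fli1 was spread most in the treated group (12.01, 12.62 and 12.22).

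Klf2 and Klf4 are the flow-responsive members, switched on through the kinases MAP3K3, MAP2K5 and MAPK7 (ERK5) and the MEF2 factors that these activate. The Klf2 start region is known for a MEF2 site through which ERK5 signaling acts. The 250 bases before the start of both genes are shown because the kinases and MEF2 genes of this input were measured on the same arrays. Sequences are from RefSeq (GRCm38.p6), chr8:72318812-72319061 on the plus strand for Klf2 and chr4:55532476-55532725 on the minus strand for Klf4, 5′ to 3′, with capitals marking a match to the MEF2 consensus on either strand:
Klf2: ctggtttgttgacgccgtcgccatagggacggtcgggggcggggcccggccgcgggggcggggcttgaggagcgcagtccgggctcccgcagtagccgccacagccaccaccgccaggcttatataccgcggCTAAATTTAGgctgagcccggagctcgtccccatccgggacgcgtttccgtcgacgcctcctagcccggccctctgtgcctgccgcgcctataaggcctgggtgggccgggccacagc
Klf4: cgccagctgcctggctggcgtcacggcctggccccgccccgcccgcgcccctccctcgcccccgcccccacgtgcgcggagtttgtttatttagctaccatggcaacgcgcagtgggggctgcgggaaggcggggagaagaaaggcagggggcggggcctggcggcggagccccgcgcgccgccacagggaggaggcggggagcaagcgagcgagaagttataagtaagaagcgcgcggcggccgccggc
The Klf2 window held 1 match, CTAAATTTAG, from 118 to 109 bases before the start, and the Klf4 window held 0 matches in these letters. Of 32841 windows of this length, 2.92% held the MEF2 consensus. Of the 10 windows of members, which covered 6 of the genes (Erg, Klf2, Klf4, Gata2, Tal1 and Nr2f2), 2 held it, in Klf2 and Erg. GATA letters (AGATAA, either strand) were in 2 member windows, of Erg and Tal1, and in 9.99% of all, SOX letters (AACAAT) in 1, of Erg, and in 9.43% of all, and ETS letters (GGAAGT) in 0 member windows and 19.7% of all. The KLF letters CCACCC stood in 1 member window, of Klf2, and in 28.1% of all. These matches are descriptions of the sequence and are not binding sites shown by these arrays.

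Klf2 (1448890_at, its only probe set) read 11.75, 11.63 and 11.68 in PBS-liposome arrays and 11.51, 11.40 and 11.59 in clodronate-liposome arrays. All treated arrays lay below all controls. The difference was -0.19 (SE 0.098, 95% interval -0.42 to 0.04, adjusted p = 0.553 in limma), and between -0.23 and -0.14 with any 1 array left out. Klf4 did not share this order. Its brightest probe set (1417394_at) read 13.28, 13.28 and 13.26 in controls, the tightest group of all member probe sets (SD 0.0091), and 13.33, 13.21 and 13.34 in treated arrays, which lay on both sides of the controls. The difference was 0.02 (SE 0.091, 95% interval -0.19 to 0.23), and -0.00037 without clodronate-liposome replicate 3. The other Klf4 probe set (1417395_at) read 12.60, 12.33 and 12.48 against 12.83, 12.23 and 12.88, with replicates 1 and 3 above and replicate 2 below every control. Its difference was 0.17 (SE 0.18, 95% interval -0.24 to 0.59), the highest upper bound among the members, and 0.38 without clodronate-liposome replicate 2.

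The genes around Klf2 and Klf4 gave no call either. All 13 measured genes of the upstream pathway (the ERK5 kinases, Mef2a, Mef2c and Mef2d, the flow sensors Piezo1 and Plxnd1, and Krit1, Ccm2, Pdcd10 and Heg1 of the cerebral cavernous malformation complex, which restrains this pathway) stayed short of the threshold, with 0 at an unadjusted p under 0.05, where 10.0% of all genes lay by their brightest probe set. Their median difference was -0.0038, against -0.0031 over all genes, and their range -0.13 to 0.19. Mef2a differed by 0.19 (SE 0.10), Krit1 by -0.13 (SE 0.11) and Map2k5 by 0.11 (SE 0.11). Dimmer probe sets of these genes lay on both sides of 0, and a pair of Krit1 probe sets below the array's median signal differed by 0.56 (SE 0.14) and 0.42 (SE 0.13), opposite to the brightest. Of the 7 genes induced by these factors, 0 passed the threshold, where 0.434% of all genes did. At an unadjusted p under 0.05, 1 lay lower and 1 higher, where 10.0% of all genes had one. Nos3, the endothelial nitric oxide synthase, read 10.69 ± 0.034 against 10.26 ± 0.26, a difference of -0.42 (SE 0.14, 95% interval -0.74 to -0.11, adjusted p = 0.305 in limma) with no overlap between groups. Ptgds, prostaglandin D synthase, differed by 0.27 (SE 0.10) and by -0.0023 in a dimmer probe set, and Nppc, the C-type natriuretic peptide gene, by 0.05 (SE 0.087). Both Ptgds and Nppc lay below the median signal of the array. Thrombomodulin (Thbd), the anticoagulant receptor on ECs, differed by 0.03 (SE 0.097).

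Among 5 genes that these factors repress, 0 passed as well, where 0.434% of all genes did. At an unadjusted p under 0.05 there were 4, 2 in each direction, where 10.0% of all genes had one. The list's median difference was 0.25, against -0.0031 over all genes. The vasoconstrictor gene Edn1 read 12.49 ± 0.13 against 12.94 ± 0.11, 0.46 higher (SE 0.11, 95% interval 0.20 to 0.71, adjusted p = 0.173 in limma). Sele, the leukocyte receptor E-selectin, read 11.53 ± 0.12 against 10.91 ± 0.41 (difference -0.62, SE 0.20, adjusted p = 0.298), and Angpt2, the vessel-destabilizing Tie2 ligand, 11.54 ± 0.17 against 11.98 ± 0.29 (difference 0.44, SE 0.16, adjusted p = 0.369). The chemokine gene Ccl2 read lower (difference -0.29, SE 0.12) and the adhesion molecule gene Vcam1 higher (0.25, SE 0.14), so that the list lay on both sides of 0. Outside the members, 14 of 15 other KLF genes were measured and 0 passed. Their range was -0.19 to 0.26 by the brightest probe set and -0.29 to 0.37 over all 43 probe sets. Klf6, an immediate early factor of activated ECs, differed by -0.19 (SE 0.11), with its other probe sets on both sides of 0. Klf7 differed by -0.18 (SE 0.11) and Klf14 by 0.15 (SE 0.091), the latter at 6.55 against 6.71, below the median signal of the array.

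GATA2 drives endothelial genes and is also needed by blood stem cells and mast cells. Its brightest probe set (1450333_a_at) read 12.72, 12.57 and 12.49 against 12.71, 12.45 and 12.59, so that replicate 1 was the highest array within each group. The difference was -0.01 (SE 0.11, 95% interval -0.27 to 0.25), and above 0 when the PBS array 1 (0.05) or the clodronate array 2 (0.06) was left out. The second Gata2 probe set (1428816_a_at) read 11.58, 11.27 and 11.27 against 11.66, 11.19 and 11.70, a difference of 0.14 (SE 0.16). As in the dimmer Klf4 probe set, replicate 2 was the lowest and replicates 1 and 3 the highest of the 6 arrays. Tal1 (1449389_at), the partner of GATA2 in a multiprotein complex, read 11.15, 11.32 and 11.31 against 10.91, 11.28 and 11.09. Its treated arrays reached lower than the controls but overlapped them, with a difference of -0.17 (SE 0.12, 95% interval -0.45 to 0.11).

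Partners of that complex, 15 of 15 measured, had 0 genes past the threshold and a median difference of 0.01. Lyl1, the nearest relative of Tal1, lay at 8.25 ± 0.094 against 7.95 ± 0.13 with no overlap (difference -0.30, SE 0.11, adjusted p = 0.371 in limma). The bridging factor gene Lmo2 differed by 0.15 (SE 0.093), also with no overlap, while the E protein gene Tcf12 differed by 0.19 (SE 0.11), or by -0.19 (SE 0.11) in its next probe set, and Ssbp2, which stabilizes the complex, by 0.21 (SE 0.15). FLI1, GATA2, TAL1 and KLF2 are also expressed in blood cells, although the gate excluded CD45-positive cells. In a bulk sample, fewer cells of a type and less RNA per cell cannot be told apart. Pan-leukocyte markers, 9 of 9 measured, had mean signals of 7.85 to 8.21 on PBS-liposome and 7.54 to 7.71 on clodronate-liposome arrays, and all 9 lay lower in the treated group. Platelet and megakaryocyte markers, 7 of 9 measured, ran from 8.57 to 8.81 and from 8.27 to 8.72, and mast cell markers, 7 of 7 measured, from 7.60 to 7.72 and from 7.55 to 7.63. Among mast cell markers, Kit read 12.72 in controls and each of the others at most 7.55. No marker signal is at 0 on this scale. The part of these cells in the signals of Fli1, Gata2, Tal1 and Klf2 was not tested.

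Nr2f2 was covered by 6 probe sets, of which 5 lay lower and 1 higher after clodronate-liposome treatment. The brightest (1416159_at) read 10.66, 10.91 and 10.90 in controls and 10.64, 10.63 and 10.59 in treated arrays. The groups did not overlap, but PBS-liposome replicate 1 lay close to the treated arrays, and the difference was -0.21 (SE 0.10, 95% interval -0.45 to 0.03, adjusted p = 0.540 in limma), or -0.29 without that array. The next (1416158_at) read 9.67, 9.64 and 9.63 against 9.29, 9.74 and 9.59, a difference of -0.11 (SE 0.13) in which clodronate-liposome replicate 1 was the lowest and replicate 2 the highest array. The third (1436475_at) differed by -0.02 (SE 0.11).

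The 3 dimmest Nr2f2 probe sets lay below the median signal of the array. One of them (1416160_at) had the widest spread of the members, from 7.49 in PBS-liposome replicate 1 to 8.34 in PBS-liposome replicate 3, and a difference of -0.07 (SE 0.22, 95% interval -0.57 to 0.43). The others differed by -0.20 (SE 0.11, 1431237_at) and by 0.13 (SE 0.14, 1444229_at), the latter through clodronate-liposome replicate 1 at 6.94 where the other 5 arrays lay between 6.41 and 6.54. Lymphatic markers, 6 of 7 measured, had mean signals of 10.62 to 10.87 in controls and 10.80 to 10.96 in treated arrays. Single lymphatic markers ran from 8.43 for Pdpn to 13.31 for Lyve1 in controls. Fibroblast and mural markers, whose cells can also express Nr2f2, had mean signals of 9.55 to 9.59 and 9.26 to 9.51. Single fibroblast and mural markers ran from 7.55 for Lum to 12.50 for Col3a1 in controls. The part of lymphatic, fibroblast and mural cells in the Nr2f2 signal was not tested.

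Venous and arterial genes were set beside Nr2f2 and Sox17, whose products stand for these identities. Of 8 venous markers, 2 fell past the threshold, where 0.434% of all genes passed in either direction. Ackr1, an atypical chemokine receptor of venules, read 11.37 ± 0.082 against 10.01 ± 0.22 (adjusted p = 0.0144 in limma). The leukocyte receptor gene Selp read 11.74 ± 0.0094 against 10.71 ± 0.29 (adjusted p = 0.0428 in limma). With the replicate number as a block 0 passed. With 1 array left out, 0 passed without any 1 PBS-liposome array or clodronate-liposome replicate 1, 1 without replicate 3 and 2 without replicate 2. The third by p was Prss23, a serine protease gene, at 0.34 (SE 0.11), so the 3 leading venous genes did not lie on 1 side of 0, and the list's median was -0.03. All 10 arterial markers were measured, 0 passed and their median was 0.03. The gap junction gene Gja4 differed by -0.20 (SE 0.11), the Notch ligand gene Jag1 by 0.20 (SE 0.12) and Sema3g by 0.19 (SE 0.12). Whether the differences of Nr2f2 and of Ackr1 or Selp are unequal was not tested.

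All 18 shared target genes of ETS and SOXF factors were measured and 0 passed. By the brightest probe set 0 had an unadjusted p under 0.05, and differences ran from -0.08 to 0.17 with a median of 0.00064. Dimmer probe sets reached farther, with 0.47 (SE 0.13) for Arhgap29, 0.30 (SE 0.16) for Egfl7 and -0.18 (SE 0.14) for Dll4, and 0 of the list's 31 probe sets passed after adjustment. Claudin 5 (Cldn5), a tight junction protein regulated by both families, differed by 0.17 (SE 0.14), Egfl7, a secreted endothelial factor, by 0.12 (SE 0.14), and the receptor gene Tie1 by 0.09 (SE 0.11). Of 23 other ETS genes, 21 were measured and 0 passed, with a median of -0.07. By the brightest probe set, 3 of the 21 had an unadjusted p under 0.05, where 10.0% of all genes had one. Elf4 lay lower by 0.34 (SE 0.11, adjusted p = 0.285 in limma), Erf, a transcriptional repressor, by 0.35 (SE 0.12), and Etv2 by 0.42 (SE 0.14). Etv2, the factor that starts endothelial fate in the embryo, had signals of 7.61 ± 0.13 against 7.18 ± 0.25, below the median of the array. Over all 51 probe sets of the list, 6 lay lower and 1 higher at an unadjusted p under 0.05, where 10.8% of all probe sets had one. Dimmer ones reached -0.67 (SE 0.16) for Elf1, -0.33 (SE 0.11) for Ets1 and 0.38 (SE 0.17) for Etv3, and 0 passed after adjustment. The other endothelial factors, 27 of 27 measured and partly the same genes as in the lists above, had 0 calls and a median of -0.04. Besides Lyl1, Tcf15, a factor of capillary endothelium, differed by -0.29 (SE 0.15) and Foxo1, which restrains endothelial growth, by -0.19 (SE 0.10). Differences in this list ran from -0.32 to 0.40 by the brightest probe set and from -0.36 to 0.66 over all 65 probe sets. Of these 65, 3 lay lower and 3 higher at an unadjusted p under 0.05 in limma, where 10.8% of all probe sets had one.

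**Figure D3:**
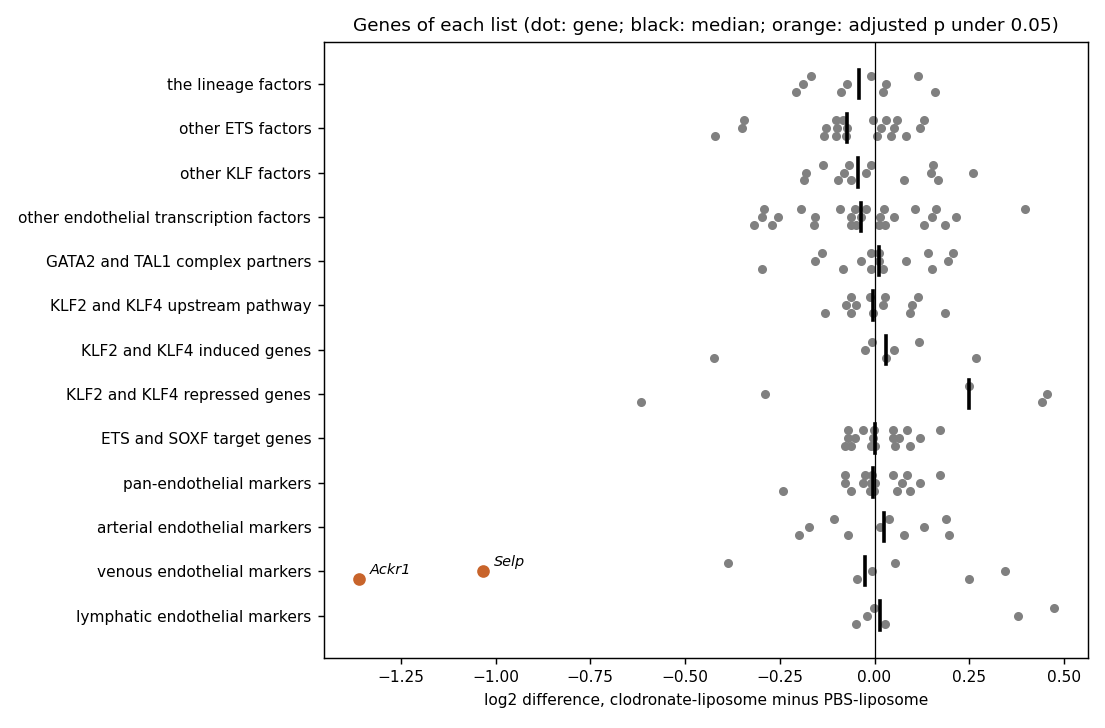
Log2 differences (horizontal axis, clodronate-liposome minus PBS-liposome) of the brightest probe set of every measured gene in 13 lists, with each dot a gene, black marks the list medians and orange the genes past an adjusted p of 0.05. The 10 lineage factors lay between -0.21 and 0.16, the ETS and SOXF targets between -0.08 and 0.17, and Ackr1 and Selp were the 2 genes past the threshold.

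Markers of macrophages, leukocytes, platelets and other cells outside the blood endothelium gave 0 calls. Macrophage markers, 12 of 12 measured, had mean signals of 8.48 to 8.83 on PBS-liposome arrays and 8.37 to 8.56 on clodronate-liposome arrays. The brightest of them, Mertk, read 12.08 in controls, and 9 of the 12 lay lower in the treated group. Cybb, a subunit of the phagocyte NADPH oxidase, differed by -1.06 (SE 0.19, adjusted p = 0.0871 in limma). The macrophage growth factor receptor gene Csf1r differed by -0.65 (SE 0.12) and the complement gene C1qc by -0.25 (SE 0.098). The 3 higher markers were Fcgr1 (0.32, SE 0.21), Mertk (0.07, SE 0.13) and Mrc1 (0.05, SE 0.15). A dimmer Fcgr1 probe set differed by -0.23 (SE 0.12). Among pan-leukocyte markers, Itgb2 differed by -0.61 (SE 0.16), Fcer1g by -0.69 (SE 0.18) and Ptprc, which encodes CD45, by -0.58 (SE 0.16). The platelet integrin gene Itga2b differed by -0.56 (SE 0.13) and the pericyte receptor gene Pdgfrb by -0.27 (SE 0.098). Of 7 platelet markers 6 lay lower and 1, Pf4, higher (0.13). Among 12 fibroblast and mural markers 9 lay lower and 3 higher, Des by 0.16. Of 6 lymphatic markers 3 were higher and 3 lower, with a median of 0.01. Mmrn1 and Reln differed by 0.47 (SE 0.14) and 0.38 (SE 0.13) in their brightest probe sets and by -0.14 and -0.11 in dimmer ones, while Prox1, the defining lymphatic factor, differed by -0.05 (SE 0.13). The median difference was 0.04 over 10 epithelial markers, but single markers varied widely between treated arrays. Sftpc read 8.49, 12.78 and 11.47 on clodronate-liposome arrays 1, 2 and 3 (SD 2.20, against 0.71 in controls). Scgb1a1 read 11.28, 7.53 and 7.89 there (SD 2.07, against 0.85 in controls). The median was 0.45 over 5 mesothelial markers, whose mean signal reached 8.80 on 1 treated array and at most 7.73 on the controls. That mesothelial median was -0.0053 with the hybridization controls as a covariate or -0.08 without clodronate-liposome replicate 3. Over the 5 measured of 8 erythroid markers the median was -0.02, or -0.49 with dim probe sets left out. Slc4a1 and Alas2 differed by -0.49 (SE 0.15) and -0.68 (SE 0.30), Hba-a1 by -0.02, and Epor and Rhag by 0.29 and 0.07. The part of these cells in the signals of the lineage factors was not tested.

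Spread between the treated arrays was larger than between controls for 15 of the 21 probe sets, a pattern seen in 54.2% of all probe sets. The median SD over the members was 0.167 in the clodronate-liposome and 0.0923 in the PBS-liposome group. Clodronate-liposome replicate 2 stood at an end of the range most often, being the lowest of the 6 arrays in 9 and the highest in 5 of the 21 probe sets, where over all probe sets it was the lowest in 18.0% and the highest in 18.2%. It was lowest for Sox18, Klf2, both Klf4 and both Gata2 probe sets and highest for both Fli1 probe sets. In control probe sets, replicates 1 and 3 of the treated group lay outside the range of the PBS-liposome arrays. Clodronate-liposome replicate 2 differed from both. Hybridization controls, which are added to every sample, averaged 12.20 there, against 11.91 and 11.94 in replicates 1 and 3 and 12.11 to 12.24 in PBS-liposome arrays, and controls for 18S ribosomal RNA averaged 12.33 against 13.01 and 13.00, with 12.39 to 12.63 in PBS-liposome arrays. With the hybridization controls as a covariate, 4 member probe sets had an unadjusted p under 0.05 and 0 passed after adjustment, namely the brighter Fli1 (0.38, adjusted p = 0.418), the dimmer Sox17 (-0.31, 0.375), Sox18 (-0.28, 0.465) and Klf2 (-0.27, 0.449). The share of all probe sets with an unadjusted p under 0.05 in that fit was not computed, so these 4 have no background share beside them. The part of the control signals in the spread was not tested.

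**Figure D4:**
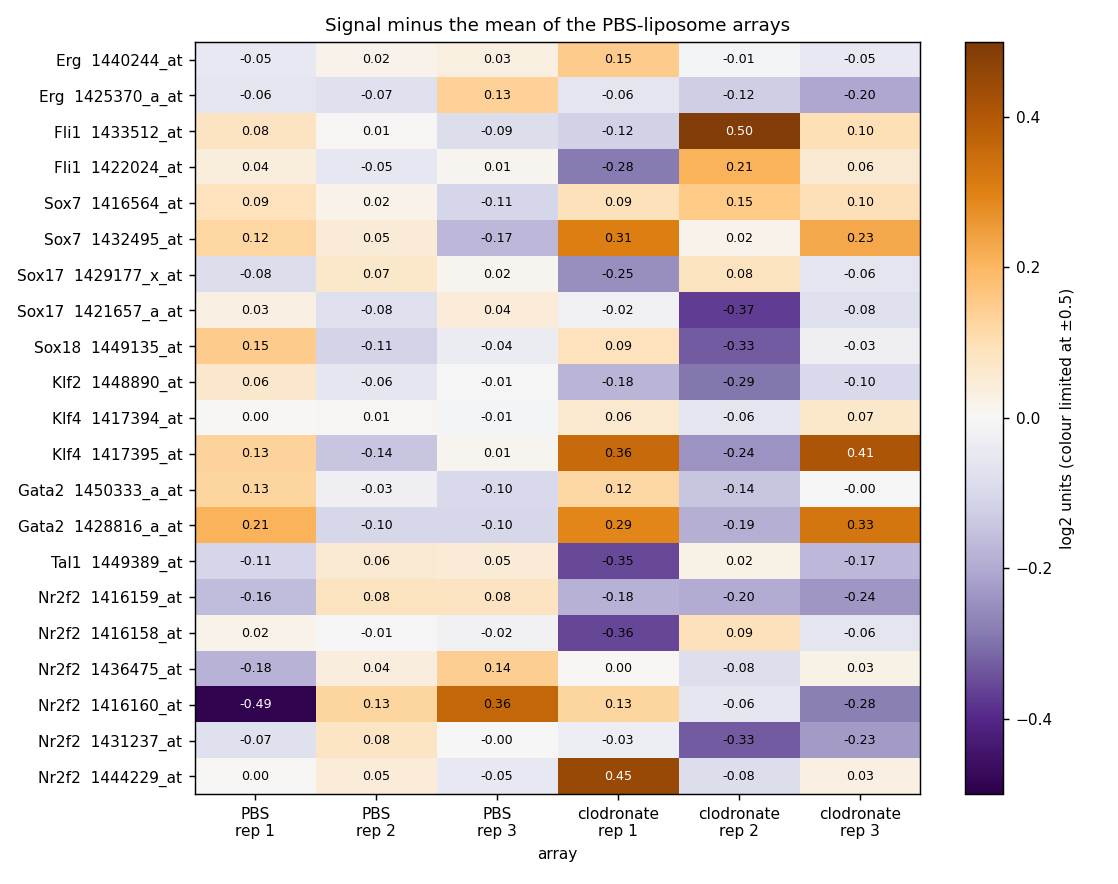
Log2 signal of the 21 probe sets on each array (columns) minus the mean of the PBS-liposome arrays, in log2 units, with brown above and purple below that mean. Klf2 and the brightest Nr2f2 probe set were below 0 on all treated arrays, and clodronate-liposome replicate 2, at 12.62 for the brighter Fli1 probe set and 12.28 for Sox18, stood farthest from the controls there.

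Profiles over the 6 arrays were compared by the root mean square distance between mean-centred log2 signals, among the other members and 103 candidate genes in all, taken from the transcription factor, pathway and target lists and brighter than the array's median. The distance is a description, and genes with little spread are near many others. Klf2, with a spread of 0.115 around its own mean, lay nearest to Klf6 (0.048) and Klf7 (0.059). Fli1, with a spread of 0.202, lay nearest to the ETS factor gene Gabpa (0.057) and to Ldb2 (0.107). Sox18 (spread 0.154) lay nearest to the Notch ligand gene Dll4 (0.039) and to Rasip1 (0.066), a regulator of vessel lumen formation. Tal1 (0.147) was nearest to Sox17 (0.052), Gata2 (0.101) to Eng (0.044) and Kdr (0.050), and Nr2f2 (0.133) to Foxo1 (0.096) and Mef2c (0.103). The second profile for Tal1 was that of Klf17 (0.075). The nearest genes of Erg were Ecscr (0.044) and Bcl6b (0.058), those of Sox7 Arhgap29 and Elk4 (both 0.054), those of Sox17 Pdcd10 and Ets1 (both 0.045), and those of Klf4 Icam2 (0.034) and Ecscr (0.036). For Erg, Sox7, Klf4 and Nr2f2, whose own spreads were 0.068, 0.083, 0.044 and 0.133, these distances were not far below the spread itself.

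Over the members as a whole, the direction of the difference was seldom firm. Of the 7 genes with more than 1 probe set, 3 (Sox7, Sox17 and Klf4) had all probe sets on 1 side of 0, and the others had them on both sides. By the brightest probe set, 6 genes lay lower and 4 higher, and 4 (Sox7, Klf2, Tal1 and Nr2f2) kept their sign whichever array was left out.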

How the data were processed

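The authors hybridized RNA of sorted lung ECs to Affymetrix mouse genome expression arrays and deposited log2 signals made by robust multiarray averaging in Chipster, which corrects background, equalizes the distributions of arrays and combines probes into probe sets. These values were used as deposited, and scanner files were not used here, so detection calls were not at hand. Of 45101 probe sets, 64 controls were set aside and 45037 were tested without a filter. The platform annotation gave 34945 of them 1 gene symbol, 932 several and 9160 none. Gene identifiers were looked up in RefSeq (GRCm38.p6), where 34741 of those with 1 symbol were found and 0 symbols had changed. A gene in a list was represented by its brightest probe set over all arrays.

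Differences were computed by moderated linear models (limma 3.58.1, run under R 4.3.3, two-sided, with 4 residual and 3.90 prior degrees of freedom), with Benjamini-Hochberg adjustment over all 45037 probe sets and a threshold of 0.05, following the empirical Bayes comparison of the study's methods. The fit was tested on simulated data. The members and lists were chosen with earlier results of these data known. Genes named from lists were those past the threshold or else the 3 with the smallest p, plus Pecam1 and Cdh5. From the platelet, mast cell, fibroblast and mural, epithelial and mesothelial lists not all of these were named. Thbd, Ssbp2, Prss23, Ccl2 and Vcam1, further cell type markers beyond that rule, and the dimmer probe sets of listed genes, were named after their values had been seen. Alternatives left out dim probe sets or each array in turn, centred arrays or repeated quantile normalization, added replicate number as a block or 1 of 2 control signals as a covariate, let the variance follow a robust trend, or averaged all probe sets of a gene. The 3 arrays per group limit the precision, and p values measure the spread between these samples, which are labelled biological replicates.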

Additional observations from a re-analysis of the deposited data

How the results depend on the processing

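No probe set of the 10 lineage factors passed the threshold under any alternative that was run (limma, count 0 throughout, at unadjusted p under 0.05 between 0 and 4). For the alternatives, the share of all probe sets at an unadjusted p under 0.05 was not computed. Signs were less stable. With the hybridization controls as a covariate 7 of 21 probe sets turned, each uncalled: the second Fli1 (0.125), the brighter Sox17 (0.0531), both Klf4 (-0.0278 and -0.127), the dimmer Gata2 (-0.098), and among Nr2f2 probe sets 1416158_at (0.0265) and 1444229_at (-0.00562). With a covariate for the gap between 3′ and 5′ control probes, Nr2f2 probe sets 1436475_at (0.005) and 1416160_at (0.0626) turned. The filter, the second quantile normalization, median centring, the replicate block and the trended variance turned 0. The filter removed the 3 dimmest Nr2f2 probe sets.

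With 1 array left out, ranges that crossed 0 were, for the brightest probe sets, -0.0304 to 0.071 for Erg, -0.00854 to 0.297 for Fli1, -0.153 to 0.0129 for Sox17, -0.179 to 0.0306 for Sox18, -0.000369 to 0.065 for Klf4 and -0.0723 to 0.0591 for Gata2. For other probe sets they were -0.112 to 0.133 for Fli1 and, for Nr2f2, -0.209 to 0.0163 (1416158_at), -0.108 to 0.0541 (1436475_at), -0.313 to 0.112 (1416160_at) and -0.027 to 0.237 (1444229_at). The cause was not tested.

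Deviations of same-numbered arrays from their group means had correlations of 0.0751, 0.0699 and 0.0361 between the groups. Correlations of arrays with unlike numbers were not computed, so these values cannot decide whether the replicate numbers pair the arrays. With the replicate block, probe sets called over the whole array went from 138 to 0, and the count of venous genes past the threshold from 2 to 0. That venous count was also 0 with the hybridization covariate and 1 with the covariate of 3′ and 5′ controls, and 0 to 2 with 1 array left out. Over the whole array 244 probe sets passed with the filter, 248 with the trended variance, 0 with the hybridization covariate and 43 with that of 3′ and 5′ controls. With 1 array left out, 15, 6 or 16 passed when PBS array 1, 2 or 3 was dropped, and 33, 73 or 23 when the clodronate array of that number was, so the share of all probe sets called rests on these settings. The other lists kept their counts of 0.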
